A study of Homo sapiens with 21 samples.

Results

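The genes that link 2-oxoglutarate to the removal of methyl groups from DNA and RNA were followed in RS4;11 leukaemia cells starved of asparagine. They are TET1, TET2 and TET3, which oxidise 5-methylcytosine in DNA, ALKBH5 and FTO, which remove methyl groups from RNA, and IDH1, IDH2 and OGDH, which make or use 2-oxoglutarate. The 8 genes were picked by name from a count table of 66738 genes, and every H3K4me3 region at their 5′ ends was taken from a table of 19279 merged regions. RS4;11 is an established line of B-cell precursor acute lymphoblastic leukaemia that carries a KMT2A-AFF1 fusion. All libraries came from this single line after 24 h in 1 of 3 media. The first medium was complete and held asparagine (+Asn), the second lacked it (-Asn), and the third lacked it and was given 10 µM ferric nitrate with 0.75 µM of the membrane iron carrier hinokitiol (-Asn+Fe). Iron and hinokitiol were given only together and only without asparagine, so the effects of the metal, of its carrier and of iron in complete medium cannot be told apart. Each medium had 3 RNA-seq libraries and 3 ChIP-seq libraries of H3K4me3, which marks the promoters of active genes. The 1 input library of each medium was not analysed here.

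TET enzymes, ALKBH5 and FTO are dioxygenases that hold an iron atom in the active site and consume 2-oxoglutarate and oxygen. TET proteins turn 5-methylcytosine into 5-hydroxymethylcytosine and further oxidised bases that repair enzymes replace with plain cytosine. TET2 is a tumour suppressor of blood cells, and ALKBH5 and FTO demethylate N6-methyladenosine (m6A), the most common internal mark of mRNA. IDH1 in the cytosol and IDH2 in mitochondria interconvert isocitrate and 2-oxoglutarate with NADP as cofactor, mutant forms of either make the inhibitor 2-hydroxyglutarate, and OGDH passes 2-oxoglutarate on to succinyl-CoA in the citric acid cycle.

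All 8 genes had enough reads to be tested. Levels are given as CPM, the gene's count scaled by the library's total times a composition factor (trimmed mean of M values, TMM). In bulk RNA, fewer cells with a transcript and less RNA per cell cannot be told apart. The ± values are SDs over 3 libraries (n = 3) unless a standard error (SE) is named. Each RNA library held between 29362707 and 42478518 counts, and the H3K4me3 libraries held 14741 to 17448 called regions. Genes were called at an adjusted p below 0.05 in edgeR's quasi-likelihood test, adjusted over all 17939 tested genes. Whether the 3 libraries of a medium stem from separate cultures is not in the labels, and a p-value here reflects no more than the spread among those libraries, which may be technical. All 10 precursor B cell markers were above 1 CPM, with summed levels of 2803 to 2882 CPM with asparagine, 2529 to 2613 without it and 2262 to 2344 with iron added. Of these markers 3 rose and 7 fell in -Asn against +Asn (median log2 -0.95), 1 rose and 5 fell with iron against -Asn (median -0.21), and 2 rose and 7 fell in -Asn+Fe against +Asn (median -1.17). RAG1, a recombinase of antigen receptor genes, was at 282 ± 6.77, 63.6 ± 13.4 and 80.1 ± 1.92 CPM in the 3 media, and CD79A, a signalling chain of the B cell receptor, at 238 ± 3.33, 385 ± 52.1 and 326 ± 7.75. Of 10 markers of other cell types 3 exceeded 1 CPM in some library (LYZ, COL1A1 and PECAM1), none was at 0 in every library, and their sum was 14.1 to 16.6 CPM with asparagine, 3.68 to 4.91 without it and 4.41 to 5.17 with iron. The part of either marker list in the results was not tested. TFRC, the transferrin receptor that cells lower when iron is plentiful, was at 599 ± 14.7 CPM in +Asn, 106 ± 9.55 in -Asn and 44.3 ± 2.11 in -Asn+Fe.

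Replicate 1 of -Asn stood apart among the RNA libraries. The chi-square per degree of freedom between it and the other -Asn libraries was 40.7 and 45.0, against 6.17 between those 2 and 3.91 to 16.9 within the other media. In it the longest 10% of tested genes (exonic length of 9928 bases or more) lay at a median log2 of -0.19 relative to the other 2 libraries, and the shortest 10% at 0.048. TET2 and TET3, with exonic lengths of 16474 and 12271 bases, lay at -0.77 and -0.65 there. The part of this library's length pattern in the TET results was not tested, and those results are given with and without it.

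In -Asn against +Asn, 6 of the 8 genes passed the test, 3 higher (TET2, ALKBH5 and IDH1) and 3 lower (TET3, IDH2 and OGDH). Of all tested genes 61.2% passed in this comparison, 31% higher and 30.2% lower. In -Asn+Fe against -Asn, 2 of the 8 passed, IDH1 higher and IDH2 lower, where 30.8% of all genes did, 14% higher and 16.8% lower. In -Asn+Fe against +Asn, 6 of 8 passed, 3 higher and 3 lower, where 64.7% of all genes did, 32.9% higher and 31.9% lower. Shares of 75%, 25% and 75% of 8 genes lie near these backgrounds and are no result about the members as a group. The median log2 fold changes of the 8 genes were -0.19, 0.11 and -0.21, beside 0.042, -0.0078 and 0.053 for all genes. The 3 comparisons share libraries and are not independent.

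**Figure D1:**
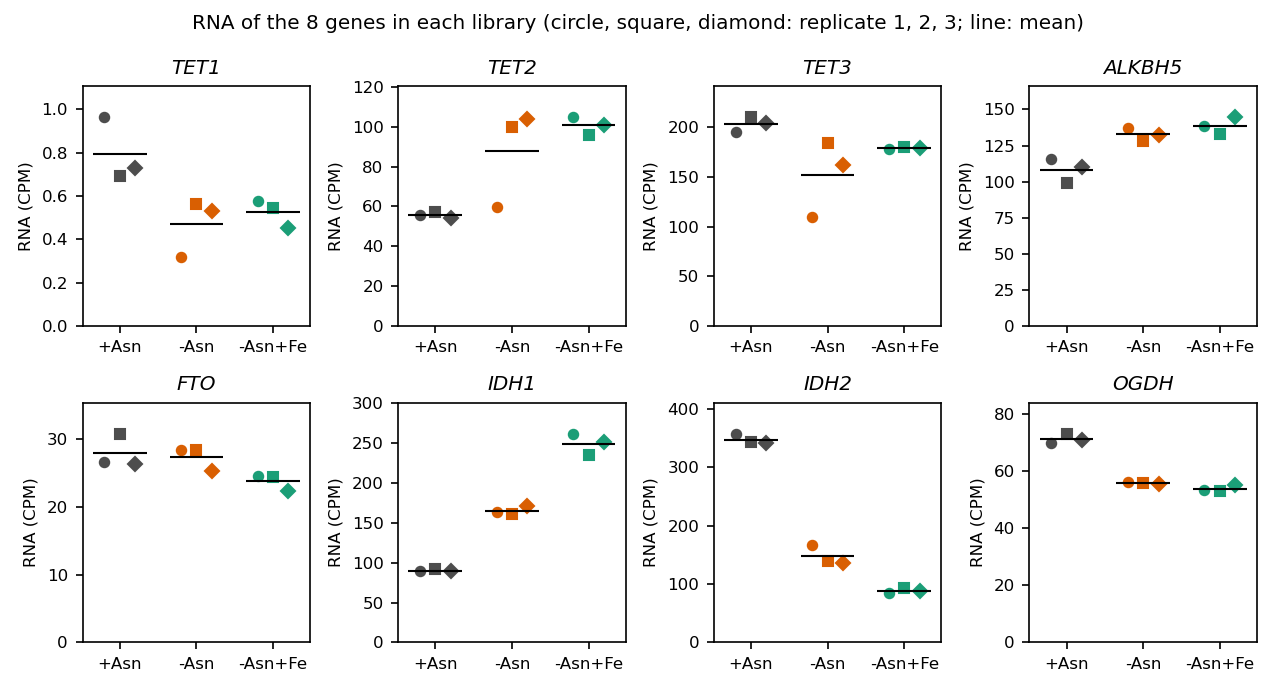
RNA of the 8 genes in CPM (y axis, linear from 0) in each library of the 3 media (x axis), with circle, square and diamond for replicates 1, 2 and 3 and a line at the mean. IDH1 climbs from about 90.1 to 249 CPM and IDH2 falls from 347 to 88.7 CPM with no overlap between media, while replicate 1 of -Asn lies below its group in TET2 and TET3.

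IDH1 RNA rose at both steps. IDH1 (ENSG00000138413.13, hg38 chromosome 2, 208236227 to 208266074, minus strand) was at 89.4, 91.9 and 89.1 CPM in +Asn, 164, 161 and 171 CPM in -Asn, with 262, 235 and 252 CPM in -Asn+Fe. The 3 media did not overlap. The log2 fold change was 0.87 (SE 0.0657, adjusted p = 6.07e-09) without asparagine, 0.60 (SE 0.0650, adjusted p = 3.75e-06) when iron was added, and 1.47 (SE 0.0664, adjusted p = 6.88e-12) over both. The last is a 2.77-fold rise.

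IDH2 RNA went the other way at both steps. IDH2 (ENSG00000182054.9, chromosome 15, 90083045 to 90102504, minus strand) was at 357, 344 and 341 CPM in +Asn, 167, 140.3 and 136 CPM in -Asn, with 84.9, 93.7 and 87.4 CPM in -Asn+Fe. Every library of a medium lay below every library of the one before. The log2 fold change was -1.23 (SE 0.0794, adjusted p = 8.83e-10) without asparagine, -0.74 (SE 0.0794, adjusted p = 3.31e-06) with iron added, and -1.97 (SE 0.0814, adjusted p = 2.20e-12) over both, a 3.92-fold fall.

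Together these changes turned the order of IDH1 and IDH2 RNA around, on the scale of exon length in -Asn+Fe only. In plain CPM the mean of IDH1 (165 ± 4.96) was above that of IDH2 (148 ± 16.6) in -Asn already, with overlap. Per kilobase of exon, IDH2 RNA was 6.71, 6.28 and 6.41 times IDH1 RNA in the +Asn libraries, 1.71, 1.46 and 1.34 times in -Asn, and 0.544, 0.669 and 0.583 times in -Asn+Fe. The mean ratios were 6.47 ± 0.220, 1.503 ± 0.189 and 0.599 ± 0.0638. The summed IDH1 and IDH2 level was 143 ± 3.06 CPM per kb with asparagine, 87.4 ± 5.61 without it and 84.3 ± 1.28 with iron, and the last 2 overlapped. These ratios are descriptions of levels on the exon-length scale and were not tested.

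OGDH RNA was lower without asparagine, by much less than IDH2. OGDH (ENSG00000105953.15, chromosome 7, 44606572 to 44709066, plus strand), the oxoglutarate-binding subunit of its dehydrogenase complex, was at 69.7, 73.0 and 70.8 CPM in +Asn, 56.2, 55.8 and 55.3 in -Asn, with 53.4, 53.0 and 55.1 in -Asn+Fe. Complete medium lay above both others. The log2 fold change was -0.35 (SE 0.0626, adjusted p = 0.000122) without asparagine and -0.40 (SE 0.0628, adjusted p = 2.79e-05) with iron against +Asn. Iron against -Asn gave -0.05 (SE 0.0629, adjusted p = 0.577), although the 3 libraries with iron all lay below those without. With library totals as the only scaling the -Asn call was lost (log2 -0.14, adjusted p = 0.0568), as it was in a test against a 1.2-fold change (adjusted p = 0.0565). That scaling moved the median of all genes up by 0.21 in this comparison and by 0.25 in -Asn+Fe against +Asn, and upper-quartile factors by 0.16 and 0.21, and all changes given here are relative to the TMM scale.

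Among the TET genes, TET2 rose and TET3 fell without asparagine. TET2 (ENSG00000168769.13, chromosome 4, 105145875 to 105279816, plus strand) was at 55.6, 57.4 and 54.3 CPM in +Asn, 59.6, 99.9 and 104 CPM in -Asn, with 104.8, 96.1 and 101 CPM in -Asn+Fe. Replicate 1 of -Asn lay just above +Asn and the other 2 within the range of the iron group. The log2 fold change was 0.66 (SE 0.147, adjusted p = 0.00122) without asparagine and 0.85 (SE 0.147, adjusted p = 0.000119) with iron against +Asn. Without replicate 1 of -Asn the starvation change was 0.87 (adjusted p = 1.01e-11). Iron against -Asn gave 0.20 (SE 0.145, adjusted p = 0.332), and -0.0066 without that library.

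TET3 (ENSG00000187605.15, chromosome 2, 73986404 to 74108176, plus strand) was at 196, 210.2 and 204 CPM in +Asn, 109.9, 184 and 162 in -Asn, with 178, 180.02 and 179 in -Asn+Fe. All libraries without asparagine lay below complete medium, and replicate 1 of -Asn was the lowest of all. The log2 fold change in -Asn was -0.42 (SE 0.129, adjusted p = 0.0108). It was -0.24 (adjusted p = 0.000904) without that library, and the call was lost with library totals (log2 -0.21), upper-quartile factors (-0.26), the stricter low-count filter (-0.30) and a test against a 1.2-fold change. In -Asn+Fe TET3 was at log2 -0.18 (SE 0.129, adjusted p = 0.224) against +Asn. This passed without -Asn replicate 1 (adjusted p = 0.00383), with only the 6 libraries compared (0.00334) and with no low-count filter (0.0434), and its sign changed with library totals (0.072) and upper-quartile factors (0.027). Iron against -Asn gave 0.24 (SE 0.129, adjusted p = 0.183), which was 0.061 without -Asn replicate 1 and passed without -Asn replicate 2 (0.39, adjusted p = 0.0261).

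TET1 (ENSG00000138336.9, chromosome 10, 68560337 to 68694487, plus strand) was near the floor of the assay. It had 36, 24 and 26 reads counted with asparagine, 12, 23 and 23 without it, and 26, 17 and 16 with iron added, or 0.794 ± 0.148, 0.472 ± 0.132 and 0.526 ± 0.0633 CPM. Complete medium lay above both other media, but the change in -Asn (log2 -0.74, SE 0.319, adjusted p = 0.0538) and in -Asn+Fe against +Asn (log2 -0.59, SE 0.319, adjusted p = 0.115) did not pass. Iron against -Asn gave 0.15 (SE 0.333, adjusted p = 0.770). Without -Asn replicate 1, which had the 12 reads, the change in -Asn was -0.54 (adjusted p = 0.189) and that of iron against -Asn was -0.042. Leaving out -Asn+Fe replicate 2 (adjusted p = 0.0420) or using RLE factors (adjusted p = 0.0495) let the change in -Asn pass.

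The share of TET2 among the TET genes was higher without asparagine, while their sum did not separate the media. Neither was tested. TET2 made up 17.4%, 16.8% and 16.5% of the summed TET level per kilobase of exon with asparagine, 28.7%, 28.7% and 32.3% without it, and 30.4%, 28.4% and 29.6% with iron added. Replicate 1 of -Asn, low in both genes, was within the range of the other libraries in this share. The sum over the 3 genes was 20.0 ± 0.639, 17.8 ± 4.52 and 20.7 ± 0.185 CPM per kb, with overlap between all media. TET3 per kilobase was 4.90 ± 0.163 times TET2 in +Asn, 2.34 ± 0.222 times in -Asn and 2.39 ± 0.118 times in -Asn+Fe.

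Of the RNA demethylases, ALKBH5 rose modestly. ALKBH5 (ENSG00000091542.9, chromosome 17, 18183078 to 18209954, plus strand) was at 115, 99.3 and 110.1 CPM in +Asn, 137, 128 and 132 in -Asn, with 138, 133 and 145 in -Asn+Fe. Every starved library lay above complete medium, with or without iron, and the starved groups overlapped. The log2 fold change was 0.29 (SE 0.0707, adjusted p = 0.00176) without asparagine, 0.36 (SE 0.0708, adjusted p = 0.000301) with iron against +Asn, and 0.06 (SE 0.0705, adjusted p = 0.530) for iron against -Asn. Both calls were lost in a test against a 1.2-fold change (adjusted p = 0.234 and 0.0592).

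FTO (ENSG00000140718.21, chromosome 16, 53701692 to 54158512, plus strand) was at 26.6, 30.7 and 26.3 CPM in +Asn, 28.4, 28.4 and 25.3 in -Asn, with 24.5, 24.4 and 22.4 in -Asn+Fe. The first 2 media overlapped (log2 -0.03, SE 0.0860, adjusted p = 0.814), and the iron group lay below both. Iron against +Asn gave log2 -0.23 (SE 0.0868, adjusted p = 0.0286) and iron against -Asn -0.20 (SE 0.0865, adjusted p = 0.0845). The call against +Asn was lost with upper-quartile factors (-0.019), the stricter filter (-0.061), a test against a 1.2-fold change, and without +Asn replicate 2 (-0.17) or -Asn+Fe replicate 3 (-0.20), and its sign changed with library totals (0.025). ALKBH5 per kilobase was 23.3 ± 3.57 times FTO in +Asn, 28.9 ± 2.12 times in -Asn and 34.8 ± 3.15 times in -Asn+Fe.

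**Figure D2:**
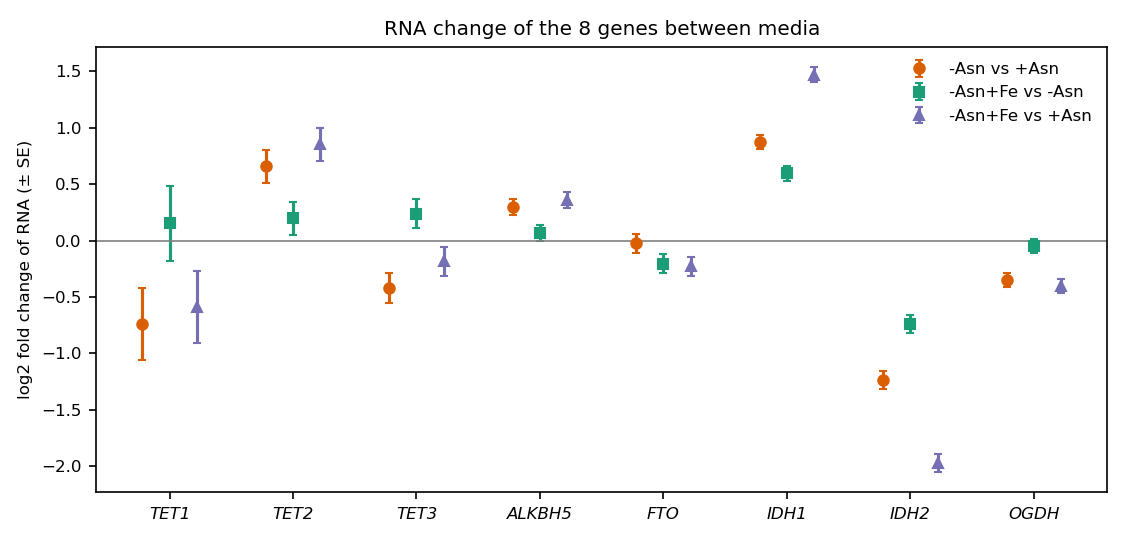
Log2 fold changes of RNA (y axis) of the 8 genes (x axis) in the 3 comparisons, with bars of 1 SE on each side. IDH1 and IDH2 lie farthest from 0 on opposite sides in all 3, from 0.60 to 1.47 and from -0.74 to -1.97, and TET1 has the longest bars (SE up to 0.333).

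On the scale of CPM per kb of exon, IDH2 led in complete medium (123 ± 3.13), followed by ALKBH5 (30.1 ± 2.27), IDH1 (19.1 ± 0.324), TET3 (16.6 ± 0.602), OGDH (13.7 ± 0.315), TET2 (3.38 ± 0.0926), FTO (1.30 ± 0.117) and TET1 (0.0826 ± 0.0154). No 2 neighbours in that order overlapped. In -Asn the order of means was the same, but ALKBH5 (36.9 ± 1.27) overlapped IDH1 (35 ± 1.05), and TET3 (12.4 ± 3.09) overlapped OGDH (10.7 ± 0.0882). In -Asn+Fe IDH1 came first (52.8 ± 2.86), before ALKBH5 (38.5 ± 1.58) and IDH2 (31.5 ± 1.61), with no overlap between neighbours. Exonic length here is the union of all annotated exons, from 2814 bases in IDH2 to 21379 in FTO, so genes with many isoforms are set too low on it.

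H3K4me3 at these genes is known only as the positions of called peaks, without heights. There were 11 regions at the 5′ ends of 7 genes, and TET1 had none in any of the 9 libraries. Of these regions, 9 were called in all 9 libraries and could be tested for width, the covered length in bases, with limma over 13883 such regions. A pair of narrow regions 3′ of the TET3 promoter was called in 1 library each and not tested. The sequences below are the 250 bases before the outermost RefSeq start (GRCh38.p14) of the genes whose regions the results turn on. Of the 8 genes 7 had an entry. IDH1, TET1, TET2 and TET3 have further RefSeq starts inside the gene, whose windows are not printed. For IDH1 the bases that other IDH1 exons cover are left out. All read 5′ to 3′ on the strand of the gene. Capitals mark matches, on either strand, to an E box (CACGTG) or to TGACNNNGC, a core of the antioxidant response element, 2 of 6 motifs searched. The others were TGATGCAA, the E2F motifs TTTGGCGC and TTTCCCGC, and the NRF1 motif, and none of the 5 windows held one of these.
IDH1, chr2:208255134-208255321, minus strand, inside the region that widened: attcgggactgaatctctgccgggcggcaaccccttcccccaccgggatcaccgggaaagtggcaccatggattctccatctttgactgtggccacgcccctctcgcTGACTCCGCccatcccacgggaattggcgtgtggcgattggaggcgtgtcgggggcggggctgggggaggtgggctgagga
ALKBH5, chr17:18183578-18183827, plus strand, inside a region that widened: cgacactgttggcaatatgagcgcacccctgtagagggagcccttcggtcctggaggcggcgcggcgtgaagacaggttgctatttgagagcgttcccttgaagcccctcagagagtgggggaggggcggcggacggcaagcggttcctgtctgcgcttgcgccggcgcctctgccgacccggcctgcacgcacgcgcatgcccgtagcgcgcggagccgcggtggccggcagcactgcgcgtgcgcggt
TET2, chr4:105145625-105145874, plus strand, at the edge of its region: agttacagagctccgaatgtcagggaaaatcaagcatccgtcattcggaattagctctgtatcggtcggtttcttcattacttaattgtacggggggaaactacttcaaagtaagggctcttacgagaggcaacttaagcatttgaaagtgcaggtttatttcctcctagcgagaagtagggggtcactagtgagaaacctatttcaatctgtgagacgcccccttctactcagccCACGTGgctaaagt
TET3, chr2:73984660-73984909, plus strand, inside its outer region: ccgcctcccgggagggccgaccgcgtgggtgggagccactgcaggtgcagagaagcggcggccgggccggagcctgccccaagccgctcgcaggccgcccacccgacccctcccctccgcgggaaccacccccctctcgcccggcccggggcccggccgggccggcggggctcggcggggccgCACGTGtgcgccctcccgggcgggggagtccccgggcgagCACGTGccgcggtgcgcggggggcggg
TET1, chr10:68560087-68560336, plus strand, with no H3K4me3 region: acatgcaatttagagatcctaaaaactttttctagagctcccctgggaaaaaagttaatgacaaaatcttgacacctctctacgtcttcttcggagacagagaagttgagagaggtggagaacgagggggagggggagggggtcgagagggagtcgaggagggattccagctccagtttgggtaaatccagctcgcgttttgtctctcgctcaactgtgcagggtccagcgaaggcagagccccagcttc
IDH1 held 1 TGACNNNGC match, 143 bases before its start, where 10.9% of 35116 RefSeq windows of this length hold one. TET3 held 2 E boxes, 67 and 27 bases before its start, and TET2 held 1, 14 bases before it, where 6.35% of all windows hold one. The full 250-base windows held 37 CG dinucleotides in TET3, 32 in ALKBH5, 17 in IDH1, 10 in TET2 and 9 in TET1. The median over all windows was 11. Windows before the inner RefSeq starts held 34 in TET2, 27 in TET3, 13 in IDH1, and 4 and 11 in TET1. None of the inner windows held a motif searched, so the TET2 and TET3 E boxes belong to the outermost start only. A match is a string of letters and not a measured site.

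The H3K4me3 region over the RefSeq start of IDH1 widened without asparagine. This region (chr2:208252165-208256101 of hg38) covered 2328, 2262 and 2551 bases in +Asn, 3818, 3892 and 3653 in -Asn, with 3873, 3745 and 3772 in -Asn+Fe. All starved libraries covered 3653 bases or more, and those in complete medium 2551 or less. The log2 width change was 0.67 (SE 0.0481, adjusted p = 2.23e-05) in -Asn against +Asn, 0.0038 (SE 0.0481, adjusted p = 0.995) with iron against -Asn, and 0.68 (SE 0.0481, adjusted p = 2.47e-05) with iron against +Asn. Widening this large or larger was not rare: 4.39% of the 13883 regions widened more in the first of these comparisons.

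The growth was on the side of the gene body. The edge upstream of the start lay 897 to 950 bases from it with asparagine, 917 to 1030 without and 927 to 1011 with iron. The downstream edge lay 1348 to 1600 bases into the gene with asparagine, 2775 to 2900 without and 2733 to 2906 with iron. Edges are the first and last called base. In -Asn replicate 3 the region held 2 separate peaks, so not every base between its edges was called. Its mean moved from 1459 ± 129 to 2858 ± 71.6 bases without asparagine, while the mean upstream edge went from 920.0 ± 27.2 to 980.0 ± 57.6. The lncRNA IDH1-AS1 runs antisense across the upstream part of the region and summed to 116 counts over 9 libraries, at 0.115 to 0.534 CPM (log2 1.13, SE 0.482, adjusted p = 0.0518 in -Asn against +Asn).

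The other IDH1 region did not pass the test. It lies at the outermost annotated 5′ end (chr2:208264955-208268341), 181 bases from the start of PIKFYVE on the plus strand, a kinase of endosomal lipids. Its width was 2969, 2954 and 2753 bases in +Asn, 2922, 2905 and 3368 in -Asn, with 3262, 2883 and 3140 in -Asn+Fe, and the groups overlapped (log2 0.08, SE 0.0662, adjusted p = 0.423 in -Asn against +Asn). PIKFYVE RNA was at 255, 271 and 278 CPM with asparagine, 167, 250.5 and 255 without it, and 299, 286 and 285 with iron added, and replicate 1 of -Asn was the lowest library. Its change in -Asn did not pass (log2 -0.26, SE 0.120, adjusted p = 0.0749) and was -0.088 without that replicate. PIKFYVE rose with iron against -Asn (log2 0.37, SE 0.120, adjusted p = 0.0291), by 0.21 without that replicate (adjusted p = 0.00332), and the call was lost without -Asn+Fe replicate 1 or 3 (adjusted p = 0.0836 and 0.0632).

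**Figure D3:**
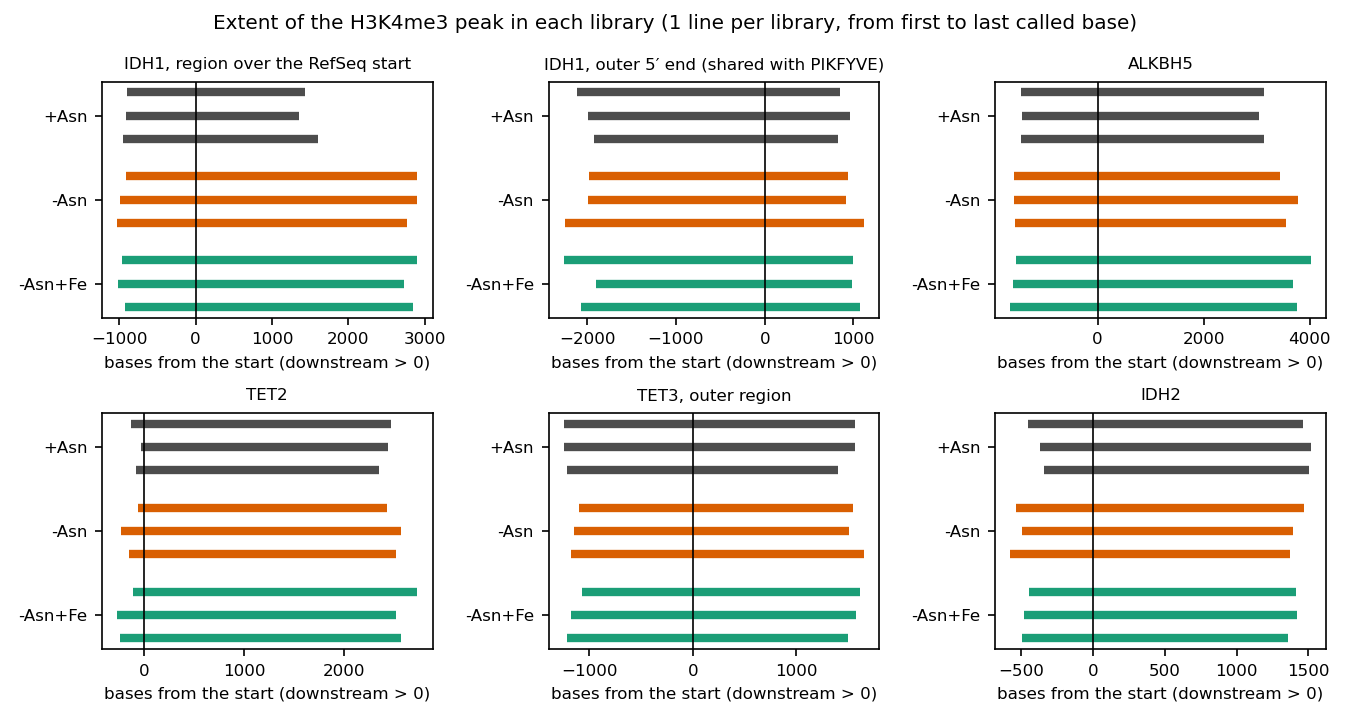
Extent of the H3K4me3 peaks in each library, with 1 line per library from the first to the last called base, coloured by medium. The x axis gives bases from the start, which is the RefSeq start, or the outermost annotated end for the outer IDH1 region and IDH2. The region over the IDH1 start reaches 2733 bases or more downstream in every starved library and at most 1600 in complete medium, whereas the lines of IDH2 and TET3 overlap between media.

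ALKBH5 also had a wider region without asparagine. Its region (chr17:18182175-18187849) covered 4594, 4490 and 4602 bases in +Asn, 5037, 5367 and 5125 in -Asn, with 5556, 5272 and 5412 in -Asn+Fe. Complete medium lay below both others, and the starved groups overlapped. The log2 width change was 0.18 (SE 0.0366, adjusted p = 0.00982) in -Asn and 0.25 (SE 0.0366, adjusted p = 0.00222) in -Asn+Fe against +Asn. Most of it was downstream, where the edge moved by 480 and 704 bases on average, beside 134 and 147 upstream. With each library centred on its median width the -Asn call was lost (log2 0.09, adjusted p = 0.0677), and 28.3% of all regions widened more.

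The TET2 region had its largest mean width with iron, but iron against -Asn did not pass (log2 0.087, SE 0.0485, adjusted p = 0.735). The region (chr4:105145600-105148613) covered 2609, 2480 and 2438 bases in +Asn, 2493, 2809 and 2682 in -Asn, with 2855, 2803 and 2814 in -Asn+Fe. The iron group lay above complete medium, and -Asn overlapped both. The change against +Asn was log2 0.17 (SE 0.0485, adjusted p = 0.0435), and -Asn against +Asn gave 0.08 (SE 0.0485, adjusted p = 0.255). The call was lost in 8 of 14 alternatives, among them centring (log2 0.10, adjusted p = 0.0636) and leaving out +Asn replicates 2 or 3, -Asn replicate 3, or any -Asn+Fe library (adjusted p = 0.0660 to 0.135).

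The remaining regions did not pass. The outer TET3 region (chr2:73983660-73986566), which holds the 2 E boxes, averaged 2752 ± 113, 2715 ± 101 and 2723 ± 32.0 bases. The inner TET3 region (chr2:74002154-74003147) at another RefSeq start averaged 557 ± 132, 644 ± 71.7 and 797 ± 171 bases, with every library of the iron group above complete medium (log2 0.53, SE 0.207, adjusted p = 0.121 with iron against +Asn). FTO shares its region (chr16:53703196-53705108) with the divergent gene RPGRIP1L, and it averaged 1717 ± 140, 1646 ± 108 and 1736 ± 96.9 bases. IDH2, whose RNA fell most, had a region (chr15:90100988-90103083) of 1887 ± 36.5, 1953 ± 60.5 and 1875 ± 24.9 bases, with log2 width changes of 0.05 (SE 0.0438, adjusted p = 0.465) in -Asn and -0.0086 (SE 0.0438, adjusted p = 0.919) in -Asn+Fe against +Asn. OGDH (chr7:44605851-44607982) averaged 1930 ± 101, 1873 ± 94.2 and 1785 ± 30.1 bases (log2 -0.11, SE 0.0557, adjusted p = 0.210 with iron against +Asn), which passed only with centring (adjusted p = 0.0201).

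In all, 2 of the 9 tested regions were called wider in -Asn against +Asn, where 14.6% of all regions were wider and 1.45% narrower, and 3 of 9 in -Asn+Fe against +Asn, where 11.7% were wider and 1.92% narrower. Against -Asn, iron gave 0 called regions among the 9 and 0% of all 13883 with limma, although 1042 of all regions had an unadjusted p below 0.05. No other tool was run on widths. The median width change of all regions was 0.086 and 0.067 in the comparisons with +Asn, and library medians ranged from 1619 to 1840 bases, so a general widening moved with these results and its part in them was not tested.

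Partners of the TET enzymes and genes that process oxidised cytosine moved in both directions. Of 19 tested genes 5 rose and 10 fell in -Asn against +Asn (median log2 -0.35), where 31% of all genes rose and 30.2% fell with a median of 0.042. With iron against -Asn 1 rose and 8 fell (median -0.017), where 14% and 16.8% of all genes did with a median of -0.0078. In -Asn+Fe against +Asn 5 rose and 12 fell (median -0.51), where 32.9% and 31.9% of all genes did with a median of 0.053. The counts of the lists that follow are read beside the same shares and medians. With library totals the splits were 7 and 9, 1 and 6, and 7 and 10. The 5 rises of the last comparison were 2 without +Asn replicate 3 and 3 without -Asn+Fe replicate 3. OGT, the O-GlcNAc transferase that binds TET proteins, was at 494 ± 26.2 CPM in +Asn, 1101 ± 207 in -Asn and 1298 ± 32.8 in -Asn+Fe, a rise of log2 1.16 without asparagine (SE 0.108, adjusted p = 9.31e-08). UHRF1, which reads hemimethylated DNA for maintenance methylation, fell from 950.0 ± 16.4 to 122 ± 5.17 and 82.6 ± 2.53 CPM. WDR76 fell from 119.7 ± 4.22 to 31.1 ± 2.64 and 10.5 ± 0.878 CPM. NEIL3, a DNA glycosylase, fell from 25.2 ± 1.85 to 15.8 ± 0.710 and 7.47 ± 0.423 CPM, whereas SMUG1, a glycosylase for uracil and 5-hydroxymethyluracil, rose from 8.13 ± 0.608 to 14.5 ± 1.30 CPM in -Asn and fell to 10.3 ± 0.258 with iron.

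Of 13 tested genes that write m6A, the substrate of ALKBH5 and FTO, 6 fell in -Asn against +Asn, where 30.2% of all genes fell, and 9 fell in -Asn+Fe against +Asn, where 31.9% did. The others did not pass, and the medians were log2 -0.24 and -0.27. With library totals the splits were 3 higher and 3 lower, and 2 higher and 4 lower, so these counts depend on the scaling. METTL3, the catalytic subunit, was at 61.8 ± 0.296, 52.3 ± 0.820 and 51.2 ± 2.69 CPM (log2 -0.24, SE 0.0657, adjusted p = 0.00477 in -Asn), a call lost with library totals, upper-quartile factors and the stricter filter. RBM15 and RBM15B, which guide the writer complex to RNA, fell in -Asn from 123 ± 0.116 to 68.7 ± 17.6 CPM and from 166 ± 4.91 to 122 ± 10.4 CPM. Their log2 fold changes of -0.84 and -0.44 were -0.64 and -0.52 without -Asn replicate 1, and both still passed. With iron against -Asn, 1 writer rose (CBLL1, log2 0.22) and 2 fell (PCIF1, log2 -0.39, and METTL5, log2 -0.34). The CBLL1 call was lost when -Asn replicate 2 or either the first or the third -Asn+Fe library was left out (log2 0.18 at the lowest). The METTL5 call was lost without any of 6 of the 9 libraries, and was -0.15 (adjusted p = 0.189) without -Asn replicate 1.

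Of 9 tested m6A readers, 7 fell in -Asn, where 30.2% of all genes fell, and the other 2 did not pass (median log2 -0.33). With library totals 3 fell. HNRNPA2B1, a nuclear RNA-binding protein, fell from 1632 ± 67.0 to 739 ± 72.7 CPM, and FMR1, which binds mRNA at polysomes, from 107 ± 4.98 to 75.1 ± 8.75 CPM. With iron against -Asn, 3 readers rose and 2 fell (median log2 0.12), where 14% and 16.8% of all genes did, and the falls, of HNRNPA2B1 and HNRNPC, were lost without any 1 of the -Asn+Fe libraries. YTHDF3 and YTHDF1, cytoplasmic m6A readers, rose from 235 ± 49.4 to 333 ± 25.8 CPM and from 91.7 ± 3.62 to 112 ± 2.48 CPM. Their log2 fold changes of 0.50 and 0.28 were 0.35 and 0.26 without -Asn replicate 1, and both still passed. YTHDC1 and PRRC2A have further copies of their symbol on alternate contigs and IGF2BP1 almost no counts, and none of the 3 was tested.

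Of the 7 other AlkB homologues, relatives of ALKBH5 and FTO, 1 rose (ALKBH3) and 1 fell (ALKBH4) in -Asn against +Asn (median log2 0.15), where 61.2% of all genes were called. The fall was lost without +Asn replicate 1 or 3 or -Asn replicate 2 or 3. ALKBH3, which repairs alkylated DNA and RNA, rose from 16.7 ± 0.651 to 24.8 ± 2.99 CPM and fell to 19.03 ± 1.09 CPM with iron. In the comparison of iron with -Asn, 2 of the 7 fell, ALKBH3 (log2 -0.38, adjusted p = 0.00579) and ALKBH1 (log2 -0.23, adjusted p = 0.0342), with a median of -0.15 where 30.8% of all genes were called. The 2 falls were 1 without -Asn replicate 1, +Asn replicate 2 or 3, or any 1 of the -Asn+Fe libraries. With library totals 5 of the 7 were higher in -Asn, so that count depends on the scaling.

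Of 22 other tested genes of the citric acid cycle around 2-oxoglutarate, 2 rose and 14 fell in -Asn against +Asn (median log2 -0.38), where 30.2% of all genes fell. With iron against -Asn 2 rose and 8 fell (median -0.20), where 16.8% of all genes fell, and in -Asn+Fe against +Asn 1 rose and 17 fell (median -0.62), where 31.9% did. With library totals the splits were 4 and 10, 2 and 6, and 2 and 14. The 8 falls with iron were 5 without -Asn+Fe replicate 1 and 5 without replicate 3. FH, fumarase, fell at both steps, from 139 ± 2.58 to 62.2 ± 4.02 and 45.4 ± 2.62 CPM. ACO1, the cytosolic aconitase that doubles as an iron sensor, fell from 44.0 ± 1.32 to 16.6 ± 1.13 CPM in -Asn and was at 17.4 ± 1.31 with iron. IDH3A, the catalytic subunit of the NAD-dependent isocitrate dehydrogenase, fell from 94.8 ± 3.48 to 49.5 ± 4.85 CPM and was at 58.2 ± 1.81 with iron. The subunit that OGDH shares with other complexes, DLD, fell from 227 ± 2.71 to 160 ± 5.18 CPM and was at 189 ± 11.3 with iron, and SUCLG2, of succinyl-CoA synthetase, fell from 90.03 ± 0.345 to 57.7 ± 1.83 and 41.6 ± 0.386 CPM. SDHAF4, an assembly factor of complex II, rose in -Asn from 4.21 ± 0.507 to 7.1 ± 0.716 CPM.

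Genes that make 2-oxoglutarate from glutamate or carry it between compartments moved in both directions. Of 16 tested, 4 rose and 9 fell in -Asn against +Asn (median log2 -0.29), where 31% of all genes rose and 30.2% fell. With iron against -Asn 3 rose and 4 fell (median -0.074), where 14% and 16.8% did, and in -Asn+Fe against +Asn 5 rose and 7 fell (median -0.36), where 32.9% and 31.9% did. With library totals these were 5 and 7, 4 and 3, and 7 and 7. GOT1, the cytosolic aspartate aminotransferase, rose from 45.2 ± 1.84 to 302 ± 31.8 CPM in -Asn (log2 2.74, SE 0.0843, adjusted p = 1.07e-13) and was at 303 ± 16.0 with iron. GOT2, its mitochondrial counterpart, fell from 234 ± 5.93 to 64.2 ± 0.619 CPM (log2 -1.87, SE 0.0622, adjusted p = 2.94e-13) and was at 58.1 ± 0.187 with iron. GPT2, the mitochondrial alanine transaminase, rose from 115 ± 2.07 to 289 ± 13.1 CPM in -Asn (log2 1.33, SE 0.0647, adjusted p = 2.6e-11) and was at 325 ± 5.83 with iron. PSAT1, a cytosolic transaminase of serine synthesis, rose from 94.7 ± 6.30 to 280 ± 8.52 and 341 ± 2.56 CPM. SLC25A1, the mitochondrial citrate carrier, fell from 85.5 ± 6.76 to 26.9 ± 2.93 and 17.8 ± 2.34 CPM. SLC25A11, the mitochondrial carrier of 2-oxoglutarate and malate, was at 58.02 ± 5.22, 48.7 ± 3.63 and 29.2 ± 3.79 CPM, and fell with iron (log2 -0.74, SE 0.0972, adjusted p = 2.58e-05).

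Of 6 tested genes that make or remove 2-hydroxyglutarate, 2 rose and 3 fell in -Asn against +Asn (1 rose without +Asn replicate 1 or 3 or -Asn replicate 2), and 1 rose and 3 fell in -Asn+Fe against +Asn, where 61.2% and 64.7% of all genes were called. With iron against -Asn 0 of the 6 were called (median log2 -0.097), where 30.8% of all genes were. LDHA, lactate dehydrogenase, which can make 2-hydroxyglutarate, fell from 1268 ± 27.2 to 409 ± 35.7 CPM. PHGDH, the entry enzyme of serine synthesis, rose from 127 ± 7.68 to 208 ± 20.3 CPM. D2HGDH, for the D form, was at 14.4 ± 0.960, 14.9 ± 2.59 and 14.1 ± 1.599 CPM and did not pass in any comparison.

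**Figure D4:**
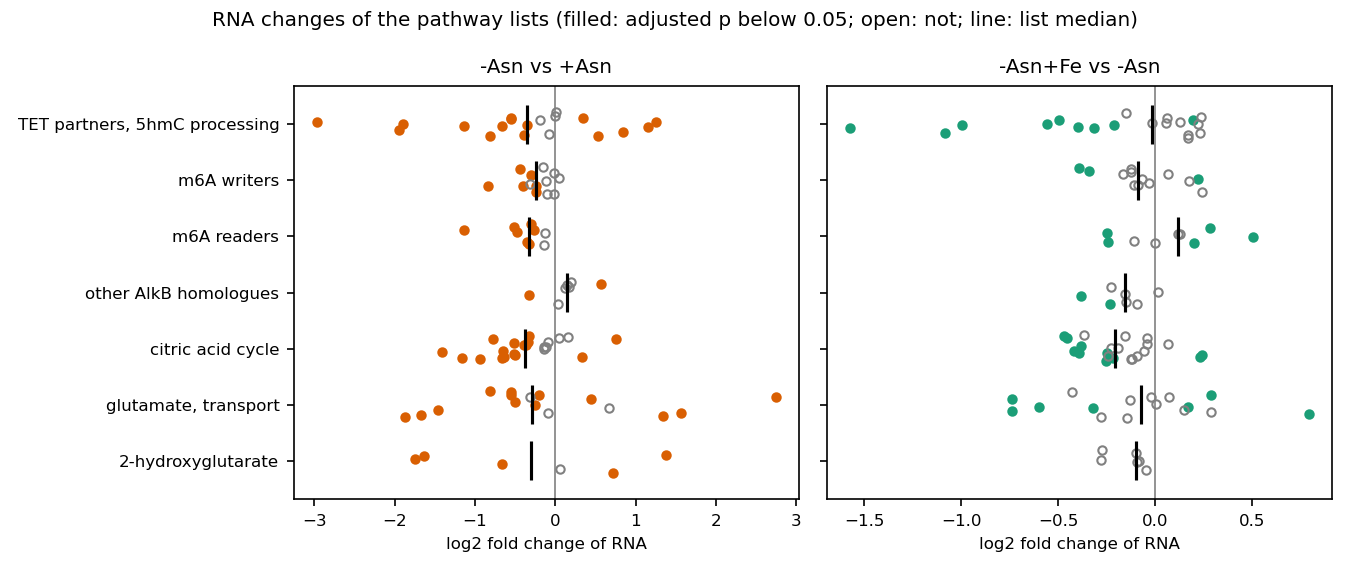
Log2 fold changes of RNA (x axis) of the tested genes in 7 pathway lists (rows) for -Asn against +Asn (left) and -Asn+Fe against -Asn (right), with filled points for adjusted p below 0.05, open points for the rest, and a line at the median of each list. In the left panel the citric acid cycle has 14 filled points below 0 and 2 above, and the glutamate list runs from SLC25A1 and GOT2 (log2 -1.67 and -1.87) to GOT1 (2.74).

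Genes with the profile most like each member were found by the root mean square (RMS) difference of log2(CPM + 0.5), centred over the 9 RNA libraries, among the 10105 tested genes that averaged 5 CPM or more. They were IFRD1 and TMEM39A for IDH1 (RMS difference 0.0570 and 0.0730), RFC2 and FEN1 for IDH2 (0.0612 and 0.0733), and ERCC3 and SAFB for OGDH (0.0410 and 0.0442). For TET2 they were AC240274.1 and RALGAPA1 (0.0830 and 0.0842), and for TET3 ATR and USP34 (0.0516 and 0.0630). For ALKBH5 they were DERL2 and TEFM (0.0532 and 0.0553), and for FTO GRAMD1A and QRICH1 (0.0589 for both). BCL2 and CD46 were nearest to TET1 (0.0685 and 0.0765), whose own profile is flattened by the added 0.5 at its low level. IFRD1 was at 67.2 ± 3.26, 129 ± 3.11 and 182 ± 7.63 CPM, and FEN1 at 188 ± 6.78, 72.4 ± 8.46 and 44.7 ± 4.97 CPM.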

How the data were processed

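RNA-seq and H3K4me3 ChIP-seq of RS4;11 cells in 3 media were used, with groups taken from the labels and the peak table's "untreated" read as complete medium. The 8 genes and the pathway and marker lists were chosen with earlier results of these data known. The authors deposited raw counts per gene, and the submitters' processing notes name STAR 2.7.2a, Subread 1.6.5 (featureCounts) and hg38. Neither the strand setting nor the treatment of multi-mapped reads is given in these sources, which leaves overlapping and antisense genes less certain. The deposited H3K4me3 table holds other values, positions of peaks per library merged into regions, and the same notes list MACS2 2.2.7.1, Picard 2.18.26 and Bowtie2 2.4.4. Its header has 12 names over 13 fields. Field 4 copies the region on each of 19279 lines, and the last 9 fields were taken as the libraries.

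Counts were fitted with edgeR 4.0.16 in R 4.3.3 (TMM, filterByExpr, robust quasi-likelihood, 1 fit over 9 libraries with 6 residual degrees of freedom), and log2 widths with limma 3.58.1 (trend), both with Benjamini-Hochberg adjustment at 0.05. Both were tested on simulated data. Regions lay within 2 kb of the outermost annotated end or 1 kb of a RefSeq start. From each list and comparison up to 2 called genes per direction with the largest change and a mean of at least 1 CPM were named, any check or marker gene could be, and METTL3 and D2HGDH were named outside that rule after their values were seen. Some genes that the rule takes are not reported here. Alternatives were DESeq2 1.42.0, other scalings and filters, and each library left out. Promoter sequences are RefSeq's.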

Additional observations from a re-analysis of the deposited data

How the results depend on the processing

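Over 18 other settings of the counts, the IDH1 and IDH2 calls kept their direction and passed in all 3 comparisons, as did TET2 in both comparisons with +Asn. The IDH1 width call passed in all 14 settings of the widths. Over the members' values, 33 changed sign, whether or not a call was lost with it. Of the values that kept their sign, 22 lost and 7 gained a call, and 745 did neither. The cause was not tested.
With upper-quartile factors, log2 fold changes that changed sign were FTO in -Asn against +Asn (0.13), OGDH in -Asn+Fe against -Asn (0.0032) and TET3 in -Asn+Fe against +Asn (0.027). With library totals they were FTO (0.18 and, in -Asn+Fe against +Asn, 0.025) and TET3 (0.072). With the stricter low-count filter they were FTO (0.092) and OGDH (0.00011), and with only the 6 libraries compared FTO (0.000956). With 1 library left out, FTO in -Asn against +Asn ranged from -0.091 to 0.026, and in -Asn+Fe against -Asn TET1 ranged from -0.042 to 0.29 and TET2 from -0.0066 to 0.35.
With widths centred on the library median, TET2 (-0.0060), outer IDH1 (-0.0087) and IDH2 (-0.041) changed sign in -Asn against +Asn and FTO (-0.049) in -Asn+Fe against +Asn, and with outer spans the IDH1 region did (-0.016) in -Asn+Fe against -Asn. With 1 library left out, the FTO width change ranged from -0.11 to 0.0057 in -Asn and from -0.026 to 0.083 in -Asn+Fe against +Asn. In -Asn+Fe against -Asn the outer TET3 region ranged from -0.011 to 0.036, the IDH1 region from -0.022 to 0.024 and the outer IDH1 region from -0.023 to 0.085. Against +Asn the outer TET3 region ranged from -0.049 to 0.0032 and IDH2 from -0.023 to 0.0053.
Tested against a 1.2-fold change, 3 of the 8 genes passed in -Asn against +Asn, and 2323 of all genes in -Asn+Fe against -Asn in place of 5525. The stricter filter, which tests fewer genes, called 7647 in -Asn+Fe against +Asn in place of 11609. With 1 library left out, called widths ranged from 1156 to 2699 in -Asn, 0 to 1 in -Asn+Fe against -Asn, and 934 to 2158 in -Asn+Fe against +Asn, beside 2233, 0 and 1887. Leaving out +Asn replicate 3 or -Asn replicate 2 or 3 moved the first by over 1.5 times, -Asn+Fe replicate 1 the second, and +Asn replicate 3 or -Asn+Fe replicate 1 or 3 the last.
The labels do not say whether the replicate numbers pair libraries. Deviations of same-numbered libraries correlated weakly (-0.147 to 0.128 for RNA and -0.211 to 0.0933 for widths). With 3 libraries per medium this cannot settle the question. With the replicate block 10769, 5155 and 11380 genes and 6, 2 and 6 of the 8 were called, and the TET2 width call was lost (adjusted p = 0.0872). Depth limits TET1 most, with 12 to 36 counts per library, and peak positions without heights cannot show a change of signal inside a region. The splits of the pathway lists and the values of PIKFYVE and RPGRIP1L under other settings were added after the data were seen. Counts of 1 to 3 list genes often changed when a single library was left out.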

Other observations

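Some noncoding genes that overlap or start beside the 8 genes had few counts, given here as sums over the 9 RNA libraries. AC087164.1, a lncRNA antisense to the 5′ part of ALKBH5, had 50 counts, TET2-AS1 had 5, and IDH2-DT, which starts 145 bases from IDH2 on the other strand, had 3. RPGRIP1L, a ciliary protein gene that shares the H3K4me3 region of FTO, had 5834 counts and was at 19.8 ± 1.47 CPM in +Asn, 17.4 ± 4.39 in -Asn and 13.8 ± 1.55 in -Asn+Fe (SD, n = 3). Its log2 fold change in -Asn+Fe against +Asn was -0.52 (SE 0.152, adjusted p = 0.00796 in edgeR's quasi-likelihood test), a call lost with upper-quartile factors, library totals and the stricter filter. FTO, on the other strand, was at -0.23 in that comparison.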
